A study of Arabidopsis thaliana with 10 samples.

Results

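Homozygous and heterozygous rosettes of a cellulose synthase mutant line of Arabidopsis thaliana were compared on Affymetrix ATH1 arrays, which read each transcript through a set of short probes. The members are the 3 arrays titled homozygous and the 3 titled heterozygous for AtCesA4, 6 of the 10 arrays of the series. The homozygous plants carry the irx5-2 allele of CesA4 on both chromosomes and the heterozygous plants carry it on a single chromosome, per the labels, in the Col-0 ecotype. All plants were 4 weeks old and untreated, and grew in a chamber at 50% humidity and 22 °C. Because the heterozygous plants hold a mutated copy as well, the comparison sets plants with both copies mutated against plants with 1, and wild-type plants were not analysed here. Whether the replicates came from different plants, from pools or from the same RNA is not given in the labels, so n counts arrays and the p-values measure the spread between arrays, which may be technical. The other 4 arrays are 2 homozygous and 2 heterozygous ones of a line that the labels name both AtcesA6 and irx6-1. In the reference gene table IRX6 is a name of COBL4, a COBRA-like gene, and not of CESA6, so which gene is mutated in that line is not settled here, and it is called the CesA6 line only after the array titles. Its arrays entered no value of the CesA4 contrast and are used at the end, to test where the lines differ.

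Cellulose is spun into the plant wall by synthase complexes of the plasma membrane, each built from several CESA subunits. CESA4 belongs to the complex that thickens the secondary walls of xylem vessels and fibres, and plants without it have collapsed vessels that conduct water poorly. Xylem is a small part of a rosette, so most rosette RNA comes from other leaf tissues.

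The deposited values are MAS5 signals, fluorescence intensities on a linear scale that were set to a common level on each array, with medians of 32 to 37.68. No detection calls were used here, so a low signal is an estimate and a change against it is no bound. A mean signal under 20 is called dim below. Pearson correlations of log2 signals were taken over 15922 probe sets, with the dimmest 30% over all 10 arrays left out. They were 0.902 to 0.919 among the 3 homozygous arrays, 0.905 to 0.922 among the 3 heterozygous arrays and 0.843 to 0.885 between the groups. CESA4 has no probe set with a gene name in the annotation used here, so the genotype was not checked against its transcript. RCA (AT2G39730), the Rubisco activase, was bright in both groups, with 10586, 11975 and 10020 in homozygous and 10209, 9890 and 10971 in heterozygous plants. It was not one of the leaf markers listed, so the leaf origin was not tested. Of the marker genes listed for root, flower, seed, xylem, phloem, leaf, guard cell and trichome, only the root beta-glucosidase gene PYK10 and the guard cell factor gene FMA had a named probe set, and neither was called. FMA had 50.9, 31.6 and 29.6 in homozygous and 50.3, 35.4 and 58.2 in heterozygous plants. In these bulk samples fewer cells of a type and less RNA per cell cannot be told apart.

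The question of this comparison is which transcripts of the rosette differ when both copies of CesA4 are mutated. Changes are log2 of the homozygous over the heterozygous signal from limma, with standard errors, and a probe set is called where its Benjamini-Hochberg adjusted p over all 22746 probe sets is under 0.05. In all 2041 probe sets were called (8.97%), 1117 higher (4.91%) and 924 lower (4.06%) in homozygous plants. A change of at least 2-fold was reached by 617 of the higher and 501 of the lower ones, and one of at least 8-fold by 67 and 68. The groups did not overlap for 5394 probe sets (23.7%), which is the share to set any count of separated members against. Calls concentrated among bright probe sets: of the 6616 with a group mean of at least 100, 818 were called higher and 729 lower (23.4%), whereas 18 of the 8465 probe sets dim in both groups were called. The median change over all probe sets was 0.03. All gene lists below were chosen with earlier results of these data known, so the counts within them are descriptions and not tests. With a variance model that lacks the trend and robust options the same test called 460 probe sets, 232 higher and 228 lower, and 98 of the 167 called genes that are named or listed here lost their call. The 20 largest rises and falls below are those among named genes that were called, had separate groups and reached a mean of at least 100 in the brighter group, so larger changes of dimmer genes are outside them. Genes are named by symbol or, without a symbol, by locus; family roles of loci without a symbol are background knowledge.

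**Figure D1:**
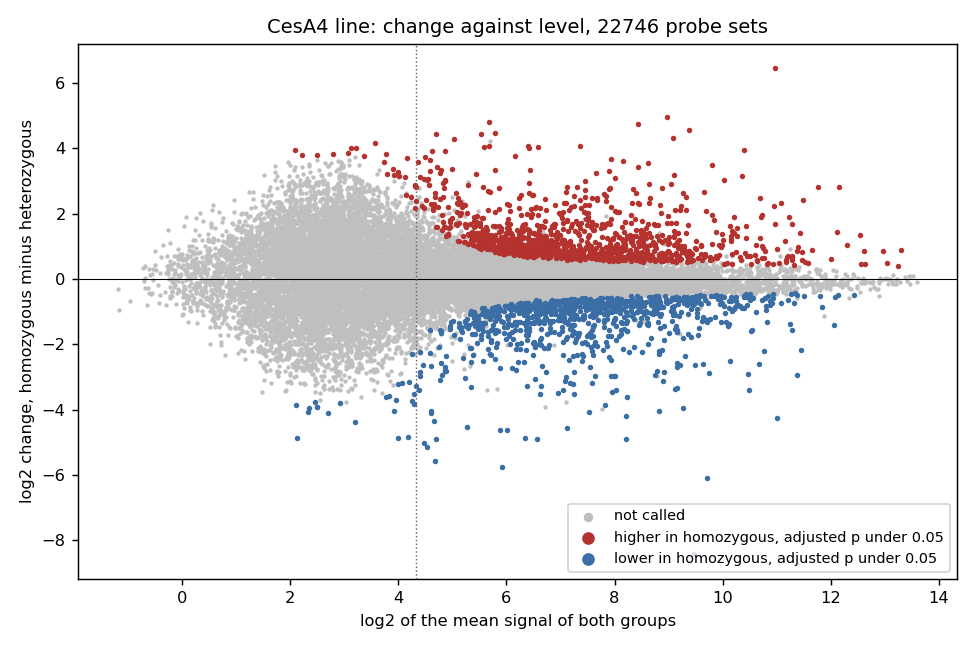
Log2 change of every probe set, homozygous minus heterozygous CesA4 plants, against log2 of the mean signal of both groups, with probe sets called higher in red and lower in blue and the dotted line at a signal of 20. The 1117 higher and 924 lower calls lie almost wholly right of the dotted line, and the largest changes reach 6.45 and -8.43.

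Among the 20 largest rises were 3 genes of a class known from drying tissue. AT3G02480, a late embryogenesis abundant (LEA) family gene, had signals of 921, 888 and 1103 in homozygous plants, against 34.1, 29.0 and 30.6 in heterozygous plants. The lowest homozygous array thus stood far above the highest heterozygous one, with a log2 change of 4.95 ± 0.18 (limma, adjusted p = 1.09e-17). LEA4-5 (AT5G06760), of the same class of protective, water-soluble proteins, gave 601, 684 and 877 in homozygous and 54.2, 71.4 and 57.9 in heterozygous plants (log2 change 3.55 ± 0.19, adjusted p = 1.65e-14). AT3G17520, a further LEA family gene, gave 107, 156 and 216 in homozygous plants, while all 3 heterozygous arrays were dim at 9.80, 18.5 and 4.79 (change 4.01 ± 0.40). No array of either genotype crossed into the range of the other for these 3 genes. The further genes with LEA in their symbol, LEA, LEA18 and AtLEA4-1, were dim in both groups and not called, at -0.63 ± 1.09, 3.74 ± 1.32 and 2.60 ± 1.24.

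Of the 5 named members of a list of 32 drought, cold and abscisic acid responsive genes, 4 were called, all higher (80%). All 5 had groups that did not overlap, with a median change of 0.93. Of all probe sets 8.97% were called and 23.7% had groups that did not overlap. The dehydrin gene LTI30 (AT3G50970) gave 3915, 3215 and 4241 in homozygous and 874, 1242 and 937 in heterozygous plants (change 1.90 ± 0.15, adjusted p = 1.38e-10). COR15A and COR15B, which encode cold-regulated proteins that protect chloroplast membranes, changed by 0.87 ± 0.13 and 0.93 ± 0.15. The dehydrin gene COR47 changed by 0.28 ± 0.13 and missed the threshold (adjusted p = 0.237), although its lowest homozygous signal, 3536, lay above its highest heterozygous one, 3439.

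A wider set of 16 genes whose symbols refer to drought, salt, cold or abscisic acid was put together after values had been seen. In it 6 were higher (37.5%, beside 8.97% of all probe sets), none lower and 10 not called. The median change was 0.81 and 4 members were dim in both groups. XERICO (AT2G04240), a RING-type gene whose overexpression raises abscisic acid levels, had 423, 491 and 588 in homozygous and 120.4, 119 and 147 in heterozygous plants, a change of 1.95 ± 0.18 (adjusted p = 2.36e-09). HIS1-3 (AT2G18050), the drought-inducible linker histone variant, had 178, 204 and 299.9 in homozygous and 27.4, 56.2 and 55.6 in heterozygous plants, a change of 2.33 ± 0.26. It was the single one of 8 named histone genes to be called (12.5%), and the median of those 8 was 0.01. DI21, RD2 and DI19, all named for induction by drought or desiccation, changed by 1.26 ± 0.22, 0.67 ± 0.15 and 0.67 ± 0.15. The temperature-induced lipocalin gene TIL and the osmotin gene OSM34 had changes of 0.42 ± 0.15 and 0.94 ± 0.30 and did not pass (adjusted p = 0.0823 and 0.0507), though their groups were separate.

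Protein phosphatase, ubiquitin ligase and lipid droplet genes were among the large rises too. AT3G05640, a PP2C-type protein phosphatase gene, was 549, 587 and 593 in homozygous and 96.7, 112 and 73.0 in heterozygous plants (change 2.64 ± 0.18, adjusted p = 6.15e-12), while its relatives AT5G27930 and AT3G16800 changed by 0.35 ± 0.18 and 1.18 ± 0.42 and did not pass. PUB19 (AT1G60190), a U-box ubiquitin ligase known to limit abscisic acid and drought responses, was 287, 259.9 and 324 in homozygous plants, against 43.1, 82.2 and 61.0 in heterozygous plants (change 2.27 ± 0.22). PUB43 was also called higher (0.76 ± 0.21) and PUB26 lower (-1.04 ± 0.26), among 9 named U-box genes (33.3% called) with a median of -0.15. The call of PUB43 was lost without homozygous replicate 1 or heterozygous replicate 1 (adjusted p 0.091 to 0.0948) and that of PUB26 without homozygous replicate 2 or heterozygous replicate 3 (adjusted p 0.0674 to 0.101). AT2G47780, which encodes a protein of the coat of lipid droplets, gave 431, 402 and 408 in homozygous and 60.5, 82.8 and 44.7 in heterozygous plants (change 2.77 ± 0.21). Its relative AT1G67360 rose less, by 0.80 ± 0.16, and AT3G05500 had -0.15 ± 0.17 (adjusted p = 0.712).

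**Figure D2:**
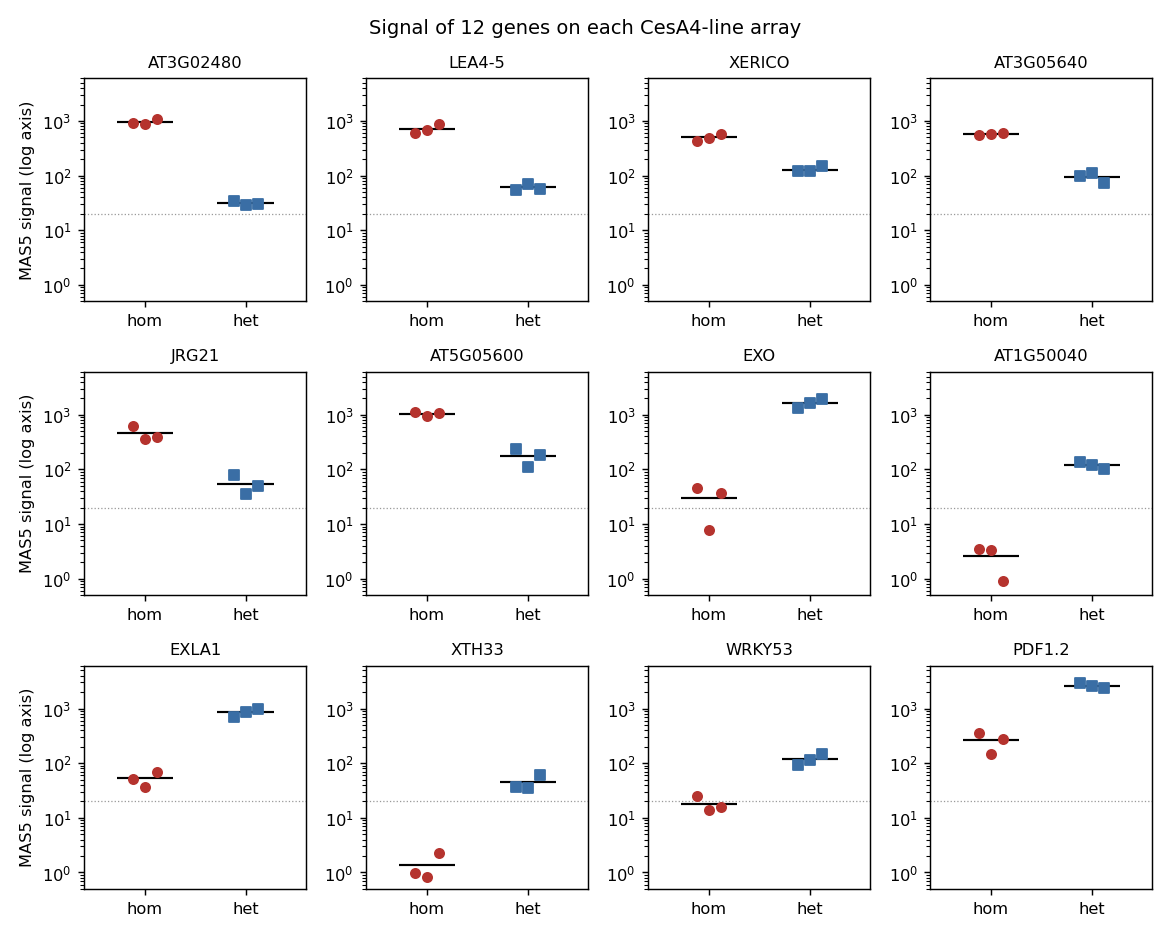
MAS5 signal on a log axis of 12 genes on each CesA4-line array, homozygous (hom, red circles) left of heterozygous (het, blue squares), with the group mean as a line and a signal of 20 dotted. In the first 6 panels every homozygous array lies above every heterozygous one, and in the last 6 panels every homozygous array lies below.

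Several genes with no symbol were also among the 20 largest rises. AT3G53980, a lipid-transfer-type gene, had 945, 1220 and 917 in homozygous and 30.2, 77.6 and 56.8 in heterozygous plants (change 4.32 ± 0.28). The same family holds AT2G37870, AT1G62510 and AT4G33550, which changed by 3.26 ± 0.26, 3.17 ± 0.20 and 2.66 ± 0.36. AT1G62510 was the brightest of these 3, with 835, 909 and 1224 in homozygous and 81.9, 102 and 152 in heterozygous plants. AT1G54020, a GDSL-type lipase gene, was 730.3, 521 and 629 in homozygous and 96.1, 60.9 and 33.0 in heterozygous plants (change 3.43 ± 0.33). AT3G28270, a gene of the At14a-like family of membrane-associated proteins, had by far the highest signal among these rises with 2348, 2237 and 3043 in homozygous plants, against 198, 129.7 and 166 in heterozygous plants (change 3.96 ± 0.18, adjusted p = 2.91e-16). Other loci without a symbol among the 20, AT3G57010, AT1G49450, AT4G02360 and AT2G21820, changed by 3.78 ± 0.63, 3.33 ± 0.27, 2.94 ± 0.27 and 2.78 ± 0.32, each with a dim heterozygous group. The call of AT3G57010 was lost without heterozygous replicate 1 (adjusted p 0.0894), and its change was 2.99 without heterozygous replicate 2 and 4.41 without heterozygous replicate 3.

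The extreme changes in both directions came from probe sets without a gene name. Probe set 262128_at had 3759, 3680 and 4387 in homozygous and 18.1, 66.5 and 75.4 in heterozygous plants (change 6.45 ± 0.63, adjusted p = 0.00603), and 5.79 without heterozygous replicate 1. Probe set 248352_at changed by 4.57 ± 0.21. In the other direction 245757_at was dim on all homozygous arrays, at 11.8, 3.68 and 1.46, against 1104, 1255 and 1880 in heterozygous plants (change -8.43 ± 0.86), a fall that was -7.70 without homozygous replicate 3 and -9.21 without homozygous replicate 1, and -7.46 with a pseudocount of 3.2. Probe set 260856_at was at 15.5, 20.4 and 22.1 in homozygous and 470.2, 561 and 695 in heterozygous plants (-4.89 ± 0.22).

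Genes of amino acid breakdown were higher in homozygous rosettes. The enzymes listed break down branched-chain amino acids and lysine in mitochondria and hand electrons to the respiratory chain, together with MGL, the methionine gamma-lyase. Of 10 named members 5 were called, all higher (50%, beside 8.97% of all probe sets), with a median change of 0.68. MGL (AT1G64660) had 485, 546 and 518 in homozygous and 157, 147 and 132 in heterozygous plants (change 1.83 ± 0.17, adjusted p = 2.64e-09). The others were MCCA, a subunit of methylcrotonyl-CoA carboxylase, at 0.83 ± 0.21, IVD, the isovaleryl-CoA dehydrogenase, at 0.78 ± 0.25, ETFBETA, an electron transfer flavoprotein, at 0.81 ± 0.23, and D2HGDH, the hydroxyglutarate dehydrogenase, at 1.02 ± 0.32. Those smaller calls were lost when single arrays were left out. For MCCA this held without heterozygous replicate 1 (adjusted p 0.0511), for ETFBETA without homozygous replicates 2 and 3 or heterozygous replicates 1 and 3 (adjusted p 0.0563 to 0.193), for D2HGDH without homozygous replicates 1 and 3 or heterozygous replicates 1 and 2 (adjusted p 0.0646 to 0.203), and for IVD without any of the 6 arrays (adjusted p 0.0644 to 0.161). IVD and D2HGDH also lost their calls with quantile normalization and with median centring. ALDH6B2, ATBCAT-5, MCCB, ETFALPHA and ETFQO ranged from 0.01 to 0.58 and did not pass.

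All 3 genes of a lysine breakdown list, put together after values had been seen, were called higher. D2HGDH, given above, was the smallest of them at 1.02 ± 0.32 and the 1 whose call depended on single arrays. AT4G33150, listed in the reference as LKR/SDH and bifunctional for the entry steps of lysine breakdown, had 239, 199.9 and 231 in homozygous and 46.0, 46.7 and 40.5 in heterozygous plants (change 2.33 ± 0.21, adjusted p = 8.47e-10). ALDH7B4 (AT1G54100), an aldehyde dehydrogenase of the same route that drought and salt induce, had 1864, 1521 and 2198 in homozygous and 409, 496 and 602 in heterozygous plants (change 1.89 ± 0.17). Every homozygous array of AT4G33150 and ALDH7B4 was above every heterozygous array.

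Carbohydrate storage and transport genes moved in both directions. APL4 (AT2G21590), a large subunit of the enzyme that makes the starch precursor ADP-glucose, had 160.2, 126 and 165 in homozygous and 13.4, 36.1 and 33.1 in heterozygous plants (change 2.56 ± 0.30, adjusted p = 6.95e-07), and its paralogue APL3 had 363, 368 and 417 in homozygous and 166, 207 and 194 in heterozygous plants (1.02 ± 0.17). The vacuolar sugar carrier gene TMT1 fell by 1.24 ± 0.20 on the log2 scale, with 73.9, 83.8 and 73.9 in homozygous and 183, 222 and 148 in heterozygous plants, whereas TMT2 stood at 0.60 ± 0.18. ATSPS4F, a sucrose phosphate synthase of leaves, was lower at -1.08 ± 0.19. These 6 genes were chosen after values had been seen, with TMT3 dim in both groups. The call of TMT2 was lost without homozygous replicates 1, 2 and 3 or heterozygous replicates 1 and 2 (adjusted p 0.0563 to 0.149) and with median centring.

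Among 16 SWEET genes, which encode sugar channels of the plasma membrane and the vacuole, 2 were called higher and 1 lower (18.8%). In both groups 8 were dim. Of all probe sets 8.97% were called, and of those with a group mean of at least 100, 23.4%. SAG29 (AT5G13170, also SWEET15) had 198, 388 and 345 in homozygous and 27.7, 49.0 and 38.2 in heterozygous plants (change 3.00 ± 0.25, adjusted p = 7.56e-10). SWEET4 (AT3G28007) had 230.0, 238 and 358 in homozygous and 45.5, 21.5 and 57.2 in heterozygous plants (change 2.82 ± 0.30). SWEET11, a phloem-loading sucrose channel, was lower at -0.61 ± 0.19, a call that was lost without homozygous replicates 1, 2 and 3 or heterozygous replicates 1 and 3 (adjusted p 0.0549 to 0.282). The other senescence and chlorophyll breakdown genes with a name, WRKY6, AT5G59080 and AT5G49900, changed by 1.94 ± 0.65, -0.02 ± 0.37 and 0.13 ± 0.44 and did not pass, so SAG29 was the single call of its 4.

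Of the 5 named members of a list of 36 jasmonate genes 3 were called higher and 2 lower, the lower pair being near-identical defensin copies. Jasmonate is a wound and defence hormone, and BSMT1 (AT3G11480) makes the volatile methyl salicylate under its control. BSMT1 had 782, 550.1 and 658 in homozygous and 42.7, 13.9 and 24.6 in heterozygous plants, a change of 4.75 ± 0.34 (adjusted p = 2.12e-06). THI2.1 (AT1G72260), a jasmonate-induced thionin, had 1233, 758 and 878 in homozygous and 281, 259 and 139 in heterozygous plants (change 2.12 ± 0.25). ORA47 (AT1G74930), a transcription factor gene of the jasmonate synthesis pathway, had 94.8, 96.1 and 140.2 in homozygous and 48.0, 34.2 and 45.1 in heterozygous plants (change 1.37 ± 0.25). All homozygous arrays were above all heterozygous arrays for these 3 genes.

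The defensin gene PDF1.2 was lower. PDF1.2 (AT5G44420), which needs jasmonate and ethylene together, had 359.7, 147 and 279.8 in homozygous and 2897, 2569 and 2407 in heterozygous plants, a change of -3.41 ± 0.27 (adjusted p = 7.67e-06). PDF1.2b, a near-identical copy whose probes may read the same transcripts, changed by -2.88 ± 0.40. Among 15 defensins and thionins as a family, 2 were higher, 4 lower (40% called) and 8 dim in both groups. The lower ones included LCR69 (-1.02 ± 0.16) and LCR68 (-0.74 ± 0.17), small cysteine-rich peptides of the defensin class, and PDF1.4 was higher (0.93 ± 0.25), a call lost without homozygous replicates 1 and 3 or heterozygous replicate 2 (adjusted p 0.0657 to 0.112).

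Genes that inactivate or modify jasmonate were added after values had been seen. JRG21 (AT3G55970) and AT5G05600, 2-oxoglutarate-dependent oxygenase genes of the group that hydroxylates jasmonate, were both among the 20 largest rises, AT5G05600 as the last of them. JRG21 had 627, 357 and 395 in homozygous and 78.3, 36.2 and 50.0 in heterozygous plants (change 3.10 ± 0.26, adjusted p = 5.19e-08). AT5G05600 had 1116, 962 and 1075 in homozygous and 236, 112 and 181 in heterozygous plants (change 2.64 ± 0.21, adjusted p = 6.5e-10). Their relatives AT3G11180 and AT2G38240 changed by 2.39 ± 0.99 and 0.85 ± 0.40 and did not pass, the first dim in both groups. JMT, the jasmonate methyltransferase, was called at 0.64 ± 0.21, but not without homozygous replicates 1 and 3 or heterozygous replicates 1, 2 and 3 (adjusted p 0.0502 to 0.249), nor with quantile normalization or median centring. The MYC3 and MYC4 factor genes and OPCL1, a ligase of jasmonate synthesis, changed by 0.38 ± 0.21, 0.53 ± 0.37 and 0.40 ± 0.20 and did not pass.

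Jacalin-related lectins were listed together with genes of ER bodies, compartments of Brassicaceae cells that hold the defence beta-glucosidase PYK10. Of 7 named genes of this group 4 were higher and none lower (57.1%, beside 8.97% of all probe sets), with a median change of 1.19. JAL23 (AT2G39330) had 1622, 1294 and 1315 in homozygous and 364, 496 and 256 in heterozygous plants (change 1.97 ± 0.19, adjusted p = 1.91e-08). JAL33 and JAL22 changed by 1.67 ± 0.24 and 1.19 ± 0.24, and JAL34 by 1.01 ± 0.24, a call lost without homozygous replicate 1 (adjusted p 0.0635). PYK10 itself, also the single measured root marker of 6, had 378, 441 and 285 in homozygous and 309, 178 and 101 in heterozygous plants, ranges that overlapped (change 1.03 ± 0.39, adjusted p = 0.201). NAI2, which encodes an ER body structural protein, was at 0.70 ± 0.25 (adjusted p = 0.101). PYK10 and these lectins are abundant in roots, and whether root tissue in the samples moved with the genotype was not tested. None of 20 named beta-glucosidase genes was called.

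Anthocyanin genes were higher in homozygous plants, 5 of the 6 named ones being called (83.3%) and none lower, with a median of 0.89. Of all probe sets 8.97% were called. DFR (AT5G42800), the dihydroflavonol reductase at the entry of the anthocyanin branch, had 1076, 687 and 749.5 in homozygous and 425, 394 and 404 in heterozygous plants (change 1.01 ± 0.17, adjusted p = 9.7e-05). The glycosyltransferase genes AT4G14090, UF3GT and UGT78D2 and the malonyltransferase gene AT5MAT changed by 1.31 ± 0.17, 1.06 ± 0.18, 0.66 ± 0.17 and 0.76 ± 0.23. UGT78D1, a flavonol rhamnosyltransferase gene outside the anthocyanin branch, did not pass at 0.12 ± 0.17. The call of UGT78D2 was lost without homozygous replicate 1 or heterozygous replicate 3 (adjusted p 0.051 to 0.154), and that of AT5MAT without homozygous replicates 1, 2 and 3 or heterozygous replicates 2 and 3 (adjusted p 0.0677 to 0.243) and with median centring.

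The wider family of UDP-glycosyltransferases, which attach sugars to hormones and phenolics, had 9 of 50 named members higher and 1 lower (20%), with a median of 0.32 and 23 members dim in both groups. UGT76E12 had 104, 59.5 and 104 in homozygous plants and was dim at 1.58, 8.73 and 10.2 in heterozygous plants (change 4.05 ± 0.59, 3.29 with a pseudocount of 3.2, and 3.19 without heterozygous replicate 1). Its neighbour in the family, UGT76E11, changed by 1.09 ± 0.23. GT72B1, which glucosylates chlorinated phenols and monolignols, changed by 0.87 ± 0.16 and UGT87A2 by 0.99 ± 0.19. UGT85A4 was the lower one at -1.29 ± 0.39, a call lost without homozygous replicate 3 or heterozygous replicates 1, 2 and 3 (adjusted p 0.057 to 0.179). Among 14 glutathione transferases (21.4% called) GSTU16 and GSTU18 were higher and GSTU27 lower, at 0.81 ± 0.20, 0.62 ± 0.20 and -1.12 ± 0.20. Of 19 CYP71B cytochromes P450, CYP71B26 was higher at 1.00 ± 0.17, as was CYP71B37 at 3.31 ± 0.84. These 2 calls of 19 (10.5%) are near the 8.97% of all probe sets. CYP71B37 was dim in heterozygous plants, and its call was lost without homozygous replicate 2 (adjusted p 0.103). Its change was 2.38 with a pseudocount of 3.2, 4.36 without heterozygous replicate 2 and 2.45 without heterozygous replicate 3. The calls of GSTU16 and GSTU18 were lost without homozygous replicate 3 or heterozygous replicate 2 (adjusted p 0.0521 to 0.0539) and without homozygous replicates 1, 2 and 3 or heterozygous replicate 1 (adjusted p 0.0556 to 0.352), and that of GSTU18 with median centring.

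**Figure D3:**
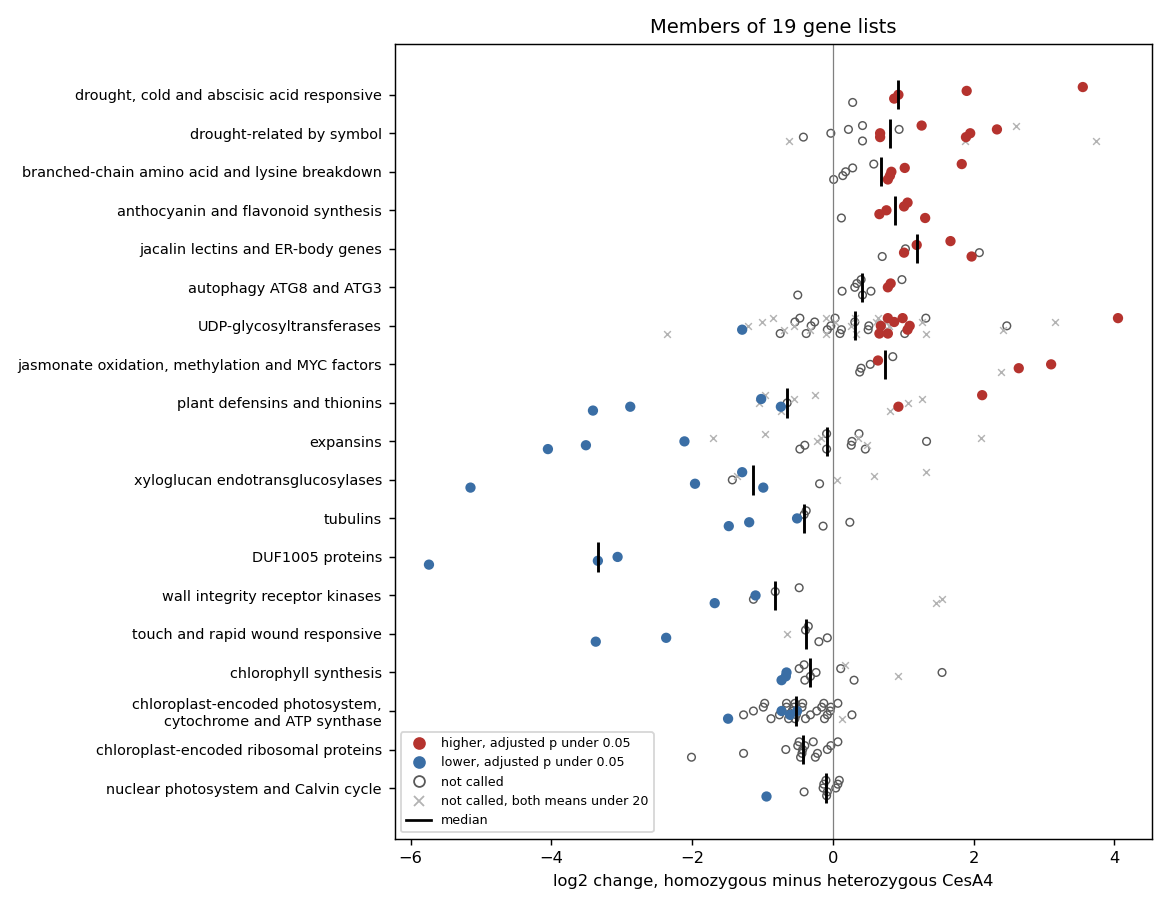
Log2 change, homozygous minus heterozygous CesA4 plants, of the members of 19 gene lists, with called members filled (red higher, blue lower), other members open, members dim in both groups as crosses and the list median as a bar. Called members of the upper 8 lists lie right of 0 except for 1 glycosyltransferase, and those of the expansin, xyloglucan, tubulin, DUF1005 and receptor lists all lie left of 0.

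Genes known for wall growth were among the deepest falls. EXO (AT4G08950), a brassinosteroid-responsive gene needed for leaf cell expansion, had 46.1, 7.90 and 36.7 in homozygous and 1310, 1653 and 1943 in heterozygous plants. Its lowest value was homozygous replicate 2, and the groups were far apart (change -6.09 ± 0.79, adjusted p = 0.016). The change was -5.29 without that array, and the call was lost without homozygous replicate 3 or heterozygous replicates 1, 2 and 3 (adjusted p 0.0559 to 0.0719).

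Expansins loosen the wall so that cells can enlarge. Of 19 named expansin genes 3 were lower and none higher (15.8%), with a median of -0.09 and 7 dim in both groups. Of all probe sets 8.97% were called, and of those with a group mean of at least 100, 23.4%. All 3 were expansin-like A genes. EXLA1 (AT3G45970) had 51.5, 37.3 and 69.4 in homozygous and 712, 866 and 991 in heterozygous plants (change -4.05 ± 0.21, adjusted p = 6.62e-15). EXLA2 had 43.96, 53.5 and 28.6 in homozygous and 154, 181 and 193 in heterozygous plants (-2.11 ± 0.24). EXLA3 was dim on all homozygous arrays, at 2.12, 8.46 and 1.63, against 32.5, 32.9 and 40.2 in heterozygous plants (-3.51 ± 0.87, and -2.51 with a pseudocount of 3.2), and its call was lost without heterozygous replicates 1, 2 and 3 (adjusted p 0.0539 to 0.0743). Without homozygous replicate 2 its change was -4.23. The bright alpha and beta expansins EXPA4 and EXPB3 changed by 0.37 ± 0.20 and 1.33 ± 0.50 and did not pass.

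Xyloglucan endotransglucosylases cut and rejoin the hemicellulose that tethers cellulose fibrils. Of 10 named genes 4 were lower and none higher (40%), with a median of -1.14 and 4 dim in both groups. XTH33 (AT1G10550) was at 0.991, 0.818 and 2.23 in homozygous and 36.8, 35.3 and 62.0 in heterozygous plants, a change of -5.15 ± 1.04 that was -3.37 with a pseudocount of 3.2. XTH16 had 28.5, 37.2 and 45.4 in homozygous and 149, 161 and 118 in heterozygous plants (-1.96 ± 0.24). EXGT-A3, the brightest of the called ones, had 349, 333 and 378 in homozygous and 613, 706 and 790.1 in heterozygous plants (-0.99 ± 0.16). XTH19 changed by -1.29 ± 0.31, a call lost without heterozygous replicate 1 (adjusted p 0.105), and the bright XTH32 did not pass at -0.19 ± 0.16.

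CSLC04 (AT3G28180), the synthase of the xyloglucan backbone, was lower as well, with 151, 141 and 160.3 in homozygous and 407, 411 and 539 in heterozygous plants (change -1.58 ± 0.18, adjusted p = 9.24e-08). Of the mannan synthase-like genes, CSLA01 was higher at 1.68 ± 0.21 and CSLA03 lower at -4.35 ± 0.95. CSLA03 was dim in homozygous plants, and its change was -2.93 with a pseudocount of 3.2, -3.73 without homozygous replicate 2 and -5.54 without homozygous replicate 3. CSLC5 and CSLD2 changed by -0.15 ± 0.23 and 0.04 ± 0.24 and did not pass. The pectin methylesterase gene ATPMEPCRB (AT4G02330, also PME41) had 29.0, 26.04 and 32.4 in homozygous and 251, 258 and 308 in heterozygous plants (change -3.22 ± 0.21), while PMEAMT and PMEPCRF were at -0.14 ± 0.16 and -0.08 ± 0.19.

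The machinery that aligns cellulose changed modestly. COB (AT5G60920), a glycosylphosphatidylinositol-anchored protein that orients cellulose deposition, had 801, 725 and 754 in homozygous and 1064, 1151 and 1266 in heterozygous plants, a change of -0.61 ± 0.15 (adjusted p = 0.0067). It was the single call among the 3 named genes of a list of 26 cellulose synthase subunits and partners, the others being AT1G45688 at -0.32 ± 0.16 and AT5G42860 at -0.23 ± 0.29. Tubulin forms the microtubules along which synthase complexes travel, and 3 of 7 named tubulin genes were lower (42.9%), with a median of -0.41. TUB5 (AT1G20010) had 105, 91.2 and 113 in homozygous and 283, 324 and 256 in heterozygous plants (-1.48 ± 0.19), and TUB1 changed by -1.19 ± 0.21. TUA6, which shares most of its sequence with other alpha tubulin genes, was called at -0.51 ± 0.16, but not without homozygous replicates 2 and 3 or heterozygous replicates 1 and 2 (adjusted p 0.0843 to 0.267), nor with quantile normalization. TUB6 and TUB9 did not pass at -0.14 ± 0.18 and -0.38 ± 0.17.

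Further growth genes were looked up by symbol after values had been seen. Of 9 named ones, COB among them, 4 were lower (44.4%), none higher and 5 not called, with 4 dim in both groups. Their changes ran from -1.95 to 1.65, with a median of -0.29. SKU5 (AT4G12420), a wall-associated protein of directional growth, had 202, 270.1 and 178 in homozygous and 548, 579 and 554 in heterozygous plants (change -1.39 ± 0.18, adjusted p = 8.97e-07). ACT11 (AT3G12110), an actin gene, had 23.7, 29.4 and 40.8 in homozygous and 84.5, 112 and 174 in heterozygous plants (-1.95 ± 0.28). ARL, an ARGOS-like gene that promotes organ size, was called at -0.72 ± 0.23, and leaving out any of the 6 arrays ended that call (adjusted p 0.0659 to 0.126).

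All 3 named genes of the DUF1005 family, whose function is not known, were called lower and stood among the 20 largest falls under the limit on brightness. AT3G19680 had 108, 101 and 96.0 in homozygous and 1062, 918 and 1115 in heterozygous plants (change -3.34 ± 0.17, adjusted p = 6.62e-15). AT1G10020 had 23.1, 12.6 and 26.2 in homozygous and 159, 166 and 168 in heterozygous plants (-3.06 ± 0.28). AT1G50040 was at 3.46, 3.40 and 0.913 in homozygous and 134, 119 and 102 in heterozygous plants (-5.74 ± 0.65, -4.42 with a pseudocount of 3.2, and -5.10 without homozygous replicate 3). The family was singled out because of these changes, so their shared direction is a description. In the DUF642 family of wall proteins, also looked up afterwards, AT2G34510 was far lower with 58.4, 58.6 and 56.0 in homozygous and 406, 465 and 486 in heterozygous plants (-2.97 ± 0.18). AT4G32460 was lower at -0.87 ± 0.19, AT2G41800 higher at 0.96 ± 0.27, and the bright AT5G11420 and AT3G08030 did not pass. The call of AT2G41800 was lost without homozygous replicates 1 and 2 or heterozygous replicate 3 (adjusted p 0.0642 to 0.165).

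**Figure D4:**
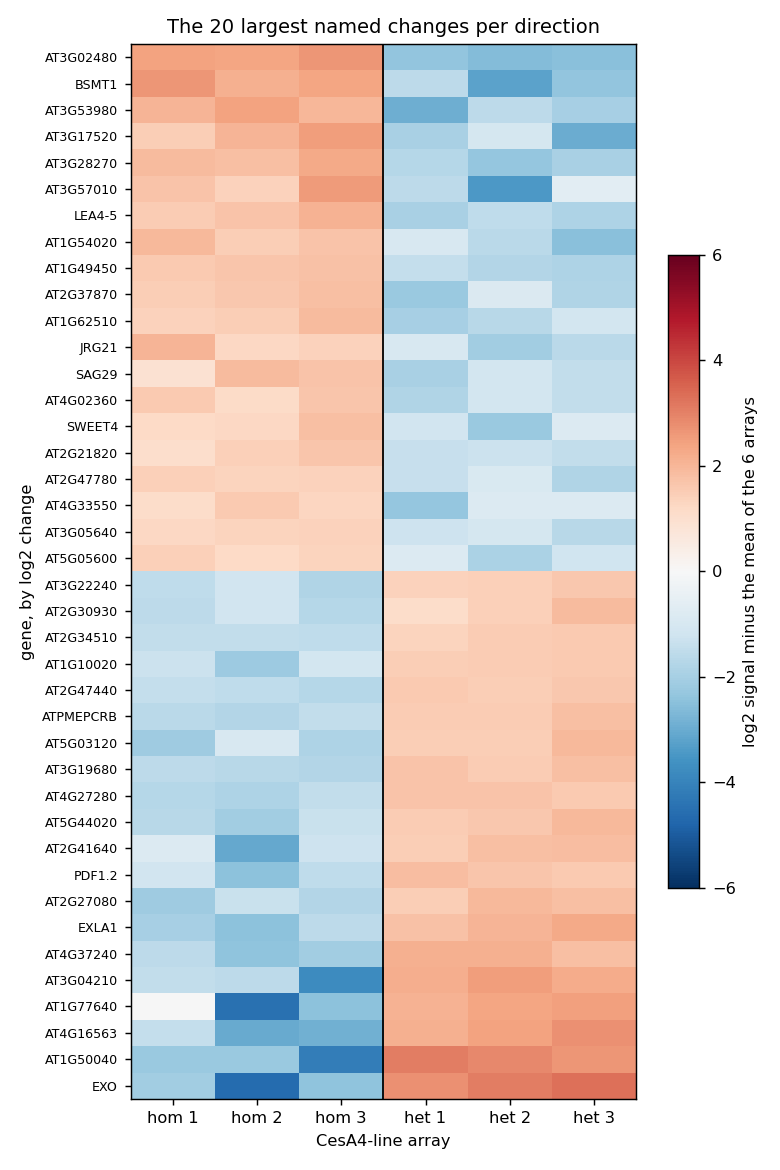
Log2 signal minus the mean of the 6 arrays for the 20 named genes with the largest rise and the 20 with the largest fall among those with a brighter group mean of at least 100, on the 3 homozygous (hom) arrays left of the 3 heterozygous (het) arrays of the CesA4 line. By the rule that chose these genes the groups do not overlap, and the homozygous arrays are the most uneven for AT1G77640, at 23.5, 1.10 and 4.45.

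Secondary wall genes were little covered. No gene of a list of 25 secondary wall transcription factors had a named probe set. IRX15-L (AT5G67210), which acts in xylan synthesis, had 164, 160.5 and 162 in homozygous and 48.7, 56.2 and 37.6 in heterozygous plants (change 1.79 ± 0.22, adjusted p = 4.8e-07). GUT1 and GUT2, glycosyltransferase genes of the xylan backbone, did not pass at -0.18 ± 0.21 and 0.64 ± 0.33, and IRX15 was dim in both groups. CCR2 (AT1G80820), a cinnamoyl-CoA reductase linked to defence lignin, had 74.1, 75.05 and 51.1 in homozygous and 17.4, 22.1 and 19.9 in heterozygous plants (1.74 ± 0.33). HCT, a core enzyme of lignin synthesis, was at 0.47 ± 0.16 (adjusted p = 0.0617) with separate groups, and CCOAMT and AT5G66390 were dim in both groups.

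Other wall enzymes moved both ways. Of 15 named GH9 endoglucanases, which trim cellulose, GH9C2 and GH9B8 were higher at 1.06 ± 0.20 and 0.97 ± 0.19 and none was lower (13.3% called). Of 23 trichome birefringence-like genes, which acetylate wall polymers, TBL37 had 226, 229 and 219.7 in homozygous and 80.5, 83.0 and 81.7 in heterozygous plants (1.46 ± 0.19), and TBL45 was lower at -1.50 ± 0.23. These 2 calls of 23 (8.7%) are near the 8.97% of all probe sets. The RALF peptides signal wall state to receptor kinases. Of 11 named ones (27.3% called) RALFL32 was higher at 1.45 ± 0.22, while RALFL33 and RALFL22 were lower at -1.81 ± 0.18 and -1.67 ± 0.19. RALFL33 had 251, 301 and 256 in homozygous and 789.7, 1303 and 807 in heterozygous plants.

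Of 7 named receptor kinases linked to the sensing of wall integrity 2 were lower and none higher (28.6%), with a median of -0.82. Another 2 were dim in both groups. The shares called were 8.97% of all probe sets and 23.4% of those with a group mean of at least 100. THE1 (AT5G54380), a kinase first identified through a cellulose-deficient mutant, had 65.4, 37.3 and 53.1 in homozygous and 155, 152 and 180.0 in heterozygous plants (change -1.68 ± 0.23, adjusted p = 2.79e-06). AT4G08850, a leucine-rich repeat receptor kinase gene, had 72.0, 43.0 and 65.8 in homozygous and 134, 126 and 119 in heterozygous plants (-1.10 ± 0.23). FER, a receptor of RALF peptides, changed by -0.48 ± 0.17 and missed the threshold (adjusted p = 0.0756), although its groups were separate.

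Of 7 named touch and wound genes 2 were lower and none higher (28.6%), and 1 was dim in both groups. Of all probe sets 8.97% were called, and of those with a group mean of at least 100, 23.4%. AT4G27280, an EF-hand calcium-binding protein gene, had 96.8, 87.9 and 113 in homozygous and 1054, 1052 and 952 in heterozygous plants (change -3.37 ± 0.17, adjusted p = 6.62e-15). AT4G29780, of the touch and wound list, had 32.3, 55.6 and 63.2 in homozygous and 251, 239.9 and 258 in heterozygous plants (-2.37 ± 0.23). The zinc finger gene STZ and the gene AT3G52800 did not pass at -0.39 ± 0.18 and -0.20 ± 0.17. CML42 (AT4G20780), a calmodulin-like gene of trichomes and insect defence, was the single call of 7 calmodulin-like genes (14.3%) at -2.31 ± 0.49, lost without homozygous replicate 2 (adjusted p 0.0962), with -2.97 without homozygous replicate 1 and -1.69 without homozygous replicate 3. WRKY53 (AT4G23810), a regulator of leaf senescence and immunity, had 25.04, 14.1 and 15.7 in homozygous and 93.5, 116 and 148 in heterozygous plants (-2.73 ± 0.30, adjusted p = 7.9e-08). It was the single call of 7 WRKY genes (14.3%) and of 4 named immunity genes (25%), and BIK1, SAG101 and EFR did not pass. AT3G04210, of the TIR-domain class of immune receptors, was at 19.5, 18.1 and 3.94 in homozygous and 243, 304 and 251 in heterozygous plants (-4.57 ± 0.60, and -3.82 without homozygous replicate 3).

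The remaining large falls had diverse annotations. AT4G16563, an aspartyl protease family gene, was at 12.3, 4.00 and 4.51 in homozygous and 145, 177 and 222 in heterozygous plants (-4.89 ± 0.40, and -4.26 with a pseudocount of 3.2). AT1G77640, an AP2/ERF transcription factor gene, was at 23.5, 1.10 and 4.45 in homozygous and 104, 126 and 131 in heterozygous plants (-4.62 ± 1.00), a call lost without homozygous replicate 3 (adjusted p 0.28). Its change was -5.76 without homozygous replicate 1, -3.55 without homozygous replicate 2 and -3.68 with a pseudocount of 3.2. AT3G22240 was the brightest gene among the 20 falls with 589, 766 and 489 in homozygous and 4338, 4534 and 5221 in heterozygous plants (-2.95 ± 0.16, adjusted p = 1.65e-14). AT5G44020, of the acid phosphatase class of vegetative storage proteins, was at 45.8, 34.6 and 57.7 in homozygous and 425, 441 and 565 in heterozygous plants (-3.39 ± 0.21). AT4G37240, AT2G27080, AT2G41640, AT5G03120, AT2G47440 and AT2G30930 fell by 4.07, 3.49, 3.41, 3.27, 3.12 and 2.95 on the log2 scale, and all 6 had groups that did not overlap. The call of AT2G41640 was lost without homozygous replicate 3 (adjusted p 0.0753), and its change without homozygous replicate 2 was -2.73.

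Photosynthesis transcripts differed little. Of 10 named nuclear genes of photosystems and the Calvin cycle 1 was called (10%, near the 8.97% of all probe sets). It was LHCB4.3 (-0.95 ± 0.20), an antenna protein gene, and the median of the 10 was -0.09. The bright photosystem I gene PSAE-1 had 9254, 8237 and 8408 in homozygous and 8574, 9020 and 10173 in heterozygous plants (change -0.10 ± 0.12, adjusted p = 0.728). Chlorophyll synthesis had 3 lower and none higher of 13 named genes (23.1%), with a median of -0.32. Of probe sets with a group mean of at least 100, 23.4% were called. HEME2 and GSA1, which act early in tetrapyrrole synthesis, changed by -0.73 ± 0.17 and -0.67 ± 0.17. PORB, the light-dependent protochlorophyllide reductase, had 835, 678 and 1188 in homozygous and 1250, 1326 and 1595 in heterozygous plants (-0.66 ± 0.17). The call of GSA1 was lost without heterozygous replicate 1 (adjusted p 0.0552), and that of PORB without homozygous replicates 1 and 2 or heterozygous replicate 3 (adjusted p 0.0672 to 0.107).

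Chloroplast-encoded photosystem, cytochrome and ATP synthase genes leaned lower, with a median of -0.53 over 32 named members, of which 4 were lower (12.5%) and none higher. psaB had 2811, 2735 and 3253 in homozygous and 4924, 4043 and 3636 in heterozygous plants (-0.51 ± 0.14, adjusted p = 0.0141). psbA, psaC and petN changed by -0.61 ± 0.17, -0.73 ± 0.21 and -1.49 ± 0.45. Signals spread widely between homozygous arrays, as for atpB with 4071, 6461 and 8588 in homozygous and 9317, 8411 and 8559 in heterozygous plants (-0.52 ± 0.23, not called). The summed signal of the 32 genes was 34670 to 46360 on homozygous and 44000 to 56800 on heterozygous arrays, ranges that overlap. The median was -0.24 without homozygous replicate 1. The call of psaB was lost without homozygous replicates 1 and 2 or heterozygous replicate 1 (adjusted p 0.0543 to 0.179), that of psbA without homozygous replicate 1 or heterozygous replicate 1 (adjusted p 0.158 to 0.167), that of psaC without homozygous replicates 1 and 2 or heterozygous replicate 1 (adjusted p 0.0913 to 0.273), and that of petN without homozygous replicate 1 or heterozygous replicates 1, 2 and 3 (adjusted p 0.0919 to 0.192), whose change was -0.78 without homozygous replicate 1 and whose call was also lost when the dimmest 30% of the array was dropped. All 4 calls, and that of ndhJ (-0.75 ± 0.21) among 10 NDH genes, were also lost when all 10 arrays shared the estimate of the spread. The call of ndhJ was lost without homozygous replicates 1 and 2 or heterozygous replicate 1 (adjusted p 0.0752 to 0.196) as well. None of 4 polymerase genes and 15 ribosomal protein genes of the chloroplast was called, with medians of -0.68 and -0.43. The same medians were 0.03 over all probe sets and -0.01 over 16 mitochondria-encoded genes, of which none was called.

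Protein and vacuole turnover genes gave scattered calls. The subtilase gene ATSBT5.2 (AT1G20160) had 154, 189 and 273 in homozygous and 50.7, 47.2 and 55.4 in heterozygous plants (1.97 ± 0.22, adjusted p = 9.27e-08). It was the single call of 9 subtilases (11.1%, near the 8.97% of all probe sets). BETA-VPE, a vacuolar processing protease, was higher at 0.98 ± 0.18, and GAMMA-VPE did not pass at 0.16 ± 0.17. Of 10 ATG8 and ATG3 genes of autophagy (20% called), ATG8F had 584, 694 and 676 in homozygous and 378, 359.7 and 368 in heterozygous plants (0.82 ± 0.16). ATG8D was called at 0.78 ± 0.25, but not without homozygous replicates 1, 2 and 3 or heterozygous replicates 1 and 2 (adjusted p 0.0607 to 0.239), nor with quantile normalization or median centring. Serine carboxypeptidase-like genes had 2 higher (scpl20 and SCPL49) and 2 lower (scpl35 and scpl25) of 29 (13.8% called). Their changes were 0.82 ± 0.21, 0.69 ± 0.18, -0.85 ± 0.20 and -0.75 ± 0.21, and the calls were lost without homozygous replicate 3 (adjusted p 0.105), without homozygous replicates 2 and 3 or heterozygous replicate 3 (adjusted p 0.0564 to 0.0761), without heterozygous replicate 1 (adjusted p 0.0682) and without homozygous replicate 1 or heterozygous replicate 2 (adjusted p 0.0704 to 0.101), in that order of genes. Of 15 tetraspanins, membrane organisers of vesicles, 2 were lower (13.3%). TET8 had 272, 252 and 331 in homozygous and 626, 909.6 and 956 in heterozygous plants (-1.53 ± 0.18). TET10 was lower at -1.19 ± 0.33, a call lost without homozygous replicate 2 or heterozygous replicate 2 (adjusted p 0.0779 to 0.135).

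Hormone and regulator genes outside these groups were mostly not called. The gibberellin receptor gene GID1B was higher with 54.6, 51.9 and 59.5 in homozygous and 14.1, 20.5 and 9.94 in heterozygous plants (1.96 ± 0.41, adjusted p = 0.00107), while GID1A and GID1C did not pass. BZIP53 (AT3G62420), a bZIP factor gene of the low-energy response, had 492, 393 and 476 in homozygous and 1137, 862 and 1056 in heterozygous plants (-1.16 ± 0.16). BZIP60, the bZIP factor of the unfolded protein response, was the single call of 18 heat and folding genes (5.56%, below the 8.97% of all probe sets). It changed by -0.64 ± 0.18, a call lost without homozygous replicate 1 or heterozygous replicate 3 (adjusted p 0.137 to 0.154). cICDH, the cytosolic isocitrate dehydrogenase, was the single call of 12 genes (8.33%, near the 8.97% of all probe sets). It changed by -0.57 ± 0.15, a call lost without homozygous replicate 3 or heterozygous replicate 1 (adjusted p 0.071 to 0.189). UGT74B1 of glucosinolate synthesis was higher at 0.68 ± 0.17, lost without homozygous replicate 2 or heterozygous replicate 3 (adjusted p 0.062 to 0.0855). No member was called among 12 auxin IAA and GH3 genes, 6 cytokinin response regulators, 12 leaf shape and polarity regulators, 8 glutamate receptors, 7 iron regulators, 5 external NAD(P)H dehydrogenases, 4 stomatal lineage genes, 3 vacuolar proton pump subunits and the clock gene GI. The medians of these lists ran from -0.49 to 0.17. Abscisic acid signalling had no named member, and the single named gene of its synthesis and breakdown, UGT71B6, was dim in both groups.

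The change of the CesA4 line was then set against that of the CesA6 line, each against its own heterozygous arrays, to find where the lines differ. The difference of the changes, CesA4 minus CesA6, was called by limma for 82 of 22746 probe sets (0.361%), 48 positive and 34 negative, and 32 of these have a gene name. Among the genes and lists described here 15 were called. Falls from heterozygous to homozygous were steeper in the CesA4 line for several wall genes. A difference of changes can come from either genotype, so the levels of both are given, except for AR781 and psbK. EXLA1 had signals of 53.4 and 26.1 in homozygous and 122 and 167 in heterozygous CesA6 plants, a change of -1.93 there against -4.05 in the CesA4 line (difference -2.12 ± 0.40, adjusted p = 0.0196). ATPMEPCRB and AT2G34510, the pectin methylesterase and the DUF642 gene, changed by -1.77 and -1.53 in the CesA6 line (differences -1.46 ± 0.31 and -1.43 ± 0.32). AT5G03120, AT5G44020, AT2G47440, AT2G30930 and 260856_at were also lower by more in the CesA4 line, with differences of -1.51 to -2.25. Mean signals of EXLA1 in CesA4 and CesA6 plants were 52.7 and 39.7 when homozygous, and 856 and 144.5 when heterozygous. For AT2G34510 they were 57.6 and 44.1 when homozygous, and 452 and 128 when heterozygous. For ATPMEPCRB the homozygous means differed too, at 29.2 and 57.0, beside 273 and 194 when heterozygous. Homozygous means of AT5G03120, AT5G44020, AT2G47440, AT2G30930 and 260856_at were 19.7, 46.0, 98.9, 97.0 and 19.3 in the CesA4 line. In the CesA6 line they were 25.5, 55.9, 117.6, 100.9 and 19.8. Their heterozygous means were 180.5, 477, 856, 762 and 575.5 in the CesA4 line, and 50.7, 177, 355, 268 and 152 in the CesA6 line.

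Other genes differed the other way, with a more positive change in the CesA4 line. IRX15-L had 131 and 128 in homozygous and 124 and 107 in heterozygous CesA6 plants, a change of 0.17 against 1.79 in the CesA4 line (difference 1.62 ± 0.32, adjusted p = 0.0169). JAL23 had 1398 and 914 in homozygous and 987 and 761 in heterozygous CesA6 plants (change 0.38, difference 1.58 ± 0.33). ORA47 pointed in opposite directions, with 48.5 and 31.4 in homozygous and 77.4 and 69.8 in heterozygous CesA6 plants (change -0.91, difference 2.28 ± 0.40, adjusted p = 0.00783). Mean homozygous signals (CesA4 line, then CesA6 line) were 162 and 129 for IRX15-L, 1411 and 1156 for JAL23, and 110 and 39.9 for ORA47. The heterozygous means, in the same order, were 47.5 and 115.5, 372 and 874, and 42.4 and 73.6. The defensin-type gene LCR69, lower in the CesA4 line, changed by 0.08 in the CesA6 line (difference -1.10 ± 0.24). Its means in CesA4 and CesA6 plants were 1051 and 666 when homozygous, and 2107 and 628.5 when heterozygous. AR781, STZ and psbK were not called in the CesA4 line and changed by -2.17, -1.67 and -2.37 in the CesA6 line, with differences of 1.82 ± 0.34, 1.28 ± 0.28 and 1.93 ± 0.36. Means of STZ in CesA4 and CesA6 plants were 279 and 213 when homozygous, and 360 and 668 when heterozygous.

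Most of the large CesA4 changes were not among the 82. Some of them had unlike changes in the CesA6 line, where AT1G50040, AT1G77640, XTH33 and EXO changed by -1.45, -0.51, -1.25 and -3.54. Their differences were -4.29 ± 1.64, -4.11 ± 1.27, -3.90 ± 1.56 and -2.55 ± 1.06 (limma, adjusted p 0.267 to 0.514). AT1G50040, AT1G77640 and XTH33 were dim in homozygous plants of both lines. AT3G02480 changed by 5.53 in the CesA6 line (difference -0.58 ± 0.27, adjusted p = 0.495), LEA4-5 by 4.11, AT3G05640 by 2.77, SAG29 by 3.39, AT4G27280 by -3.20 and PDF1.2 by -4.27. The tests that miss the threshold do not show that these genes behave alike, and with 2 arrays a group in the CesA6 line the count is unstable. Leaving out a CesA6 array gave 99 calls for homozygous replicate 1, 30 for homozygous replicate 2, 14 for heterozygous replicate 1 and 17 for heterozygous replicate 2. Leaving out a CesA4 array gave 33, 68 and 58 calls for homozygous replicates 1, 2 and 3, and 38, 123 and 36 for heterozygous replicates 1, 2 and 3. No probe set was called (0) with a variance model that lacks trend and robust (1731 at an unadjusted p under 0.05).

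**Figure D5:**
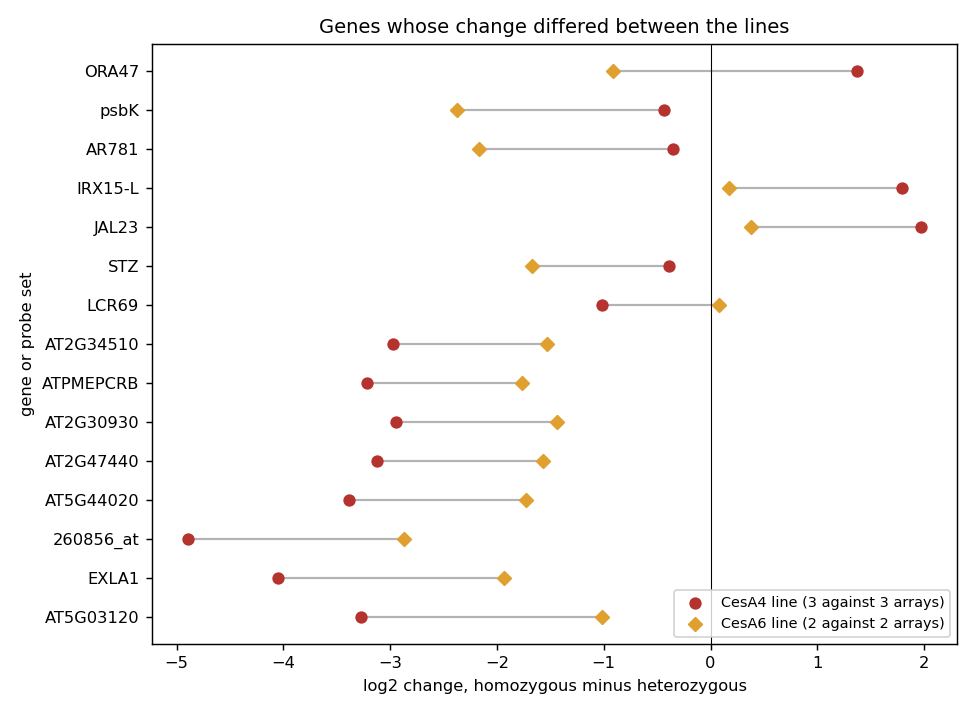
Log2 change, homozygous minus heterozygous, in the CesA4 line (red circles, 3 against 3 arrays) and the CesA6 line (yellow diamonds, 2 against 2 arrays) for the 15 named genes and probe sets whose change was called different between the lines, ordered by the difference. EXLA1 stands at -4.05 in the CesA4 line and -1.93 in the CesA6 line, and ORA47 lies on opposite sides of 0, at 1.37 and -0.91.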

How the data were processed

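The 6 CesA4-line arrays were compared, 3 homozygous and 3 heterozygous. The deposited series table holds linear intensities, made by the authors with MAS5 in GCOS per the submitters' processing notes, after biotin labelling of RNA from a Qiagen kit per the labels. The table holds 22810 probe sets; 64 controls were left out and 22746 tested. Each array had a 2% trimmed mean of 100.01, so the arrays had been scaled alike. The number of arrays limits the precision.

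Log2 of the deposited signal was fitted with limma 3.58.1 in R 4.3.3 (a mean per group, eBayes with trend and robust, Benjamini-Hochberg adjustment, threshold 0.05). The difference between lines was fitted over all 10 arrays. Errors of changes are standard errors of the fit.

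The platform annotation gave 13513 probe sets 1 gene, 503 several and 8730 none; 13436 of those with 1 gene were matched to TAIR10.1 for symbols. Where several probe sets named the same gene the brightest stood for it, which left 13355 genes. Promoter and protein sequences were not used here, so a planned count of promoter motifs was not made.

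Gene lists (60, and 10 added after values were seen) and members were chosen with earlier results of these data known. Named genes are, per direction, the 20 named genes with the largest called change, separate groups and a brighter group mean of at least 100; of each list up to 3 called members per direction and the 2 brightest others; lists with under 5 tested members; all members of the added lists; and the 2 largest rises and falls without a name. Of the longer lists and the added ones some members are given by counts or ranges, and smaller calls of a list are named after their values were seen.

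On simulated data for 22746 probe sets, log2 changes of 0.5, 1 and 2 were given to 67, 67 and 66 of them. In the CesA4 comparison 2.99%, 19.4% and 39.4% of these were recovered. There 7 of 48 calls were false, a larger share than the 0.05 aimed at. For the difference between lines 0%, 7.46% and 43.9% were recovered, with 2 false among 36 calls. With the 2041 calls of the data the adjusted threshold is less strict, so recovery in the CesA4 comparison itself was not measured. Alternatives were another pseudocount, filters on dim probe sets, normalization, variance model, replicate block, the arrays that share the spread, and leaving out each array.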

Additional observations from a re-analysis of the deposited data

Results flagged for a closer look

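A test of the difference between the lines, by limma over all 10 arrays, set 15 genes or probe sets apart, CesA4 change minus CesA6 change on the log2 scale. The CesA4 change was the more negative for AT5G03120 by -2.25, EXLA1 by -2.12, 260856_at by -2.03, AT5G44020 by -1.66, AT2G47440 by -1.55, AT2G30930 by -1.51, ATPMEPCRB by -1.46, AT2G34510 by -1.43 and LCR69 by -1.10. It was the more positive, or the less negative, for ORA47 by 2.28, psbK by 1.93, AR781 by 1.82, IRX15-L by 1.62, JAL23 by 1.58 and STZ by 1.28. ORA47 was higher in homozygous CesA4 plants and changed by -0.91 in the CesA6 line, where homozygous signals were 48.5 and 31.4 and heterozygous ones 77.4 and 69.8. The genes psbK, AR781 and STZ were not called in the CesA4 line and changed by -2.37, -2.17 and -1.67 in the CesA6 line, which has 2 arrays a group. Each of the 15 lost its call under 3 to 10 of 18 alternatives.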

How the results depend on the processing

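Of 167 called genes that are named or listed, 67 kept their call under all 15 alternatives of the CesA4 comparison, 53 lost it with the plain variance model alone, and 46 without some array; none changed sign. The count of calls was 1995 to 2239 under other pseudocounts, filters, scalings and shared spread, 1567 to 1784 without single arrays (815 to 1036 higher and 696 to 880 lower), and 460 with plain eBayes (232 higher, 228 lower; 3487 at an unadjusted p under 0.05); the cause was not tested. The combined pseudocount and filter was chosen after seeing the data. Median centring turned the split to 939 higher and 1056 lower. For the difference between lines, plain eBayes called 0, none in either direction (1731 at an unadjusted p under 0.05), and leaving out single arrays called 14 to 123 (10 to 76 positive, 4 to 47 negative). Median centring shifted its median from 0.08 to -0.09 and its calls to 21 positive and 50 negative, against 48 and 34. Changes of dim probe sets shrank with a pseudocount of 3.2 by construction, and among the 8465 probe sets dim in both groups, 18 of which were called, low signal limits what can be seen.

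Same-numbered replicates need not be pairs. Deviations of arrays with the same number correlated at 0.0751, 0.154 and 0.156, and each homozygous array correlated best with its own number, a hint from the data only. With the replicate block 2454 probe sets were called (1316 higher, 1138 lower), EXO and 245757_at among the lost calls, and 151 for the difference between lines (91 positive, 60 negative).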

Other observations

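Some calls outside the gene groups were chosen after their values were seen. CCS (AT1G12520), the copper chaperone of superoxide dismutase, had 558, 627 and 552 in homozygous and 246, 241 and 228 in heterozygous plants, a log2 change of 1.28 ± 0.16 (limma, adjusted p = 1.13e-06). SKP2A (AT1G21410), an F-box protein gene of the cell cycle, had 374, 332 and 344 in homozygous and 114, 106 and 106 in heterozygous plants (1.69 ± 0.18). ZW9 (AT1G58270) had 1034, 745 and 1216 in homozygous and 201, 222 and 193 in heterozygous plants (2.25 ± 0.18), and EULS3, a lectin gene, had 286, 238 and 239 in homozygous and 69.7, 74.0 and 91.2 in heterozygous plants (1.70 ± 0.19). All 3 homozygous arrays of these 4 genes exceeded all heterozygous ones. CuAO1, a copper amine oxidase of polyamine breakdown, PRX52, a class III peroxidase, and SGP2 changed by 1.57 ± 0.24, 1.61 ± 0.29 and 2.04 ± 0.29.

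Genes chosen in the same way that were lower include CaS, a thylakoid calcium sensor, at -0.57 ± 0.16, CRT1b, a calreticulin, at -0.73 ± 0.16, and SRC2, a cold-regulated C2-domain gene, at -0.91 ± 0.15. The call of CaS was lost without homozygous replicates 1 and 2 or heterozygous replicate 3 (adjusted p 0.052 to 0.199). BZIP61, SUFE2 and ULT1, an ULTRAPETALA gene of meristem size control, were dim in homozygous plants, with changes of -4.53 ± 0.86, -4.83 ± 1.10 and -3.02 ± 0.59, and ULT1 was -2.15 without homozygous replicate 1. For BZIP61 the call was lost without homozygous replicate 3 (adjusted p 0.0734), and its change was -3.26 with a pseudocount of 3.2, -5.83 without homozygous replicate 1 and -3.66 without homozygous replicate 2. The change of SUFE2 was -3.03 with that pseudocount and -5.47 without homozygous replicate 2.

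Replicate 2 was the highest array in both genotypes for 4 bright genes that did not pass. EXPB3 had 369, 729 and 412 in homozygous and 139.6, 366 and 135 in heterozygous plants, and GH9B13 had 279.7, 512 and 272 in homozygous and 90.3, 189 and 41.4 in heterozygous plants. TBL36 had 229, 423 and 139 in homozygous and 34.5, 165 and 50.7 in heterozygous plants, and BCAT4, a methionine elongation gene of glucosinolate synthesis, had 2307, 4081 and 1743 in homozygous and 1333, 1740 and 1582 in heterozygous plants. Their changes were 1.33 ± 0.50, 1.93 ± 0.66, 1.85 ± 0.79 and 0.72 ± 0.28, with adjusted p of 0.242, 0.223, 0.326 and 0.2. What the arrays numbered 2 share is not given in the labels.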
